A study of Mus musculus with 11 samples.

Results

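Schwann cells and satellite glia, the glial cells that accompany the spiral ganglion neurons and the nerve fibers of the cochlea, were followed through 8 genes: Mbp, Pmp22, S100b, Fabp7, Erbb3, Pou3f1, Gfap and Mal. Every probe whose transcript accession mapped to 1 of these symbols was taken, which gave 13 probes, and the brightest kept probe of a gene was used as its main probe. All 8 genes had a kept probe, among 18927 genes with a kept probe on the array, and 12 of the 13 probes passed the filter on dim signals.

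Solid otospheres, which are spheres formed in suspension culture by dissociated cochlear cells, had been profiled beside native cochlear sensory epithelium and mouse embryonic stem cells (ESCs) on 11 single-color arrays. Otospheres (OS1 to OS6) were secondary spheres at passage 1 from ICR mice at postnatal day 1, with 10 mice and 20 cochleae per dissection. They were grown for 4 or 5 days before and again after passaging with N2, B27, bFGF (10 ng/ml), IGF1 (50 ng/ml) and heparan sulfate, and were passed through a 100 μm strainer to keep solid spheres. The cochlear sensory epithelium (CSE1 to CSE3) came uncultured from ICR mice of the same age after the spiral ligament and stria vascularis had been taken off, and it was a whole dissected tissue, not sorted cells. The ESCs were 2 lines at passage 13, G4-2 (ES1) and D3 (ES2), kept without feeder cells in serum with 1000 U/ml of LIF, so that each line was 1 sample, and no strain was given for them. OS1 with OS2 and OS4 with OS5 differed by less than the noise between spots of a probe (0.946 and 0.433 of it, against 1.72 for the next closest pair of a group), and each pair was averaged as 1 sample, called OS1-2 and OS4-5. This left 4 otosphere, 3 CSE and 2 ESC samples. The labels do not say which samples came from separate dissections, so p-values measure only the spread between these samples, which may be technical.

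Schwann cells descend from the neural crest, receive neuregulin from axons through ErbB3 and its partner ErbB2, pass through a promyelinating stage that needs the transcription factor Pou3f1, and then turn on the myelin genes. Satellite glia enwrap the neuronal cell bodies and share S100b, Fabp7 and potassium and glutamate handling proteins with immature Schwann cells. Several of these genes are not restricted to glia: S100b and Fabp7 also occur in supporting cells of the organ of Corti, Mal sorts proteins to the apical membrane of many epithelia, Pmp22 is found in epithelia and fibroblasts, and Pou3f1 is active in early pluripotent cells.

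Signals are background-corrected, quantile-normalized log2 values, and 1 unit is a 2-fold difference. Between 55.1% and 71.6% of the probes lay well above background on an array, and the number of arrays limits the precision. The arrays lay on 2 slides, each of which held all 3 groups: ES1, OS1 to OS3, CSE1 and CSE2 on slide 1, and ES2, OS4 to OS6 and CSE3 on slide 2. Pou5f1, a defining gene of pluripotent cells, gave 14.02 and 14.27 in the ESCs and at most 5.56 in the other samples. Zfp42 and Dppa5a, 2 other pluripotency markers, also stood highest in the ESCs. The main probe of Nanog went the other way, with 8.50 and 8.26 in ES1 and ES2 and between 8.82 and 10.75 in the other samples. Hair cell and supporting cell markers were present in CSE, with Myo7a between 10.24 and 10.68. In otospheres Myo7a lay between 7.22 and 8.92, against 8.08 and 7.52 in ES1 and ES2. Of 6 hair cell markers, Gfi1 was called higher in otospheres than in the ESCs (limma adjusted p = 0.018) and 5 were not called. Gfi1 gave 6.44 to 9.69 in otospheres, against 5.26 and 4.99 in ES1 and ES2. Pvalb, not called, gave 9.33 to 10.88 against 9.27 and 8.80. Epyc, a supporting cell gene, lay between 14.54 and 15.05 in otospheres and between 15.57 and 15.76 in CSE. The other supporting cell markers read, Jag1, Lfng, Fgfr3 and Prox1, differed more, by -2.69, -2.58, -3.91 and -1.74 (otospheres minus CSE).

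The 250 bases before the annotated start of Fabp7, S100b and Mal are shown because Fabp7 and S100b were the members lowest in otospheres against CSE and Mal was the highest. The sequences are from RefSeq (mouse build GRCm38.p6), are written on the strand of the gene, and stand at chr10:57784673-57784922 (plus strand), chr10:76253586-76253835 (plus strand) and chr2:127656696-127656945 (minus strand). Capitals mark the core TGGGAA of sites for RBPJ, the DNA-binding factor of the Notch pathway, on either strand.
Fabp7: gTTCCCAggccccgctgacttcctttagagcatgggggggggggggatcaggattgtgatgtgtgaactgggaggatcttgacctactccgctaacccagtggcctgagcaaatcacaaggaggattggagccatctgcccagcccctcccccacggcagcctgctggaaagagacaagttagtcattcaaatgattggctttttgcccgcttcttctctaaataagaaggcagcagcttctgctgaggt
S100b: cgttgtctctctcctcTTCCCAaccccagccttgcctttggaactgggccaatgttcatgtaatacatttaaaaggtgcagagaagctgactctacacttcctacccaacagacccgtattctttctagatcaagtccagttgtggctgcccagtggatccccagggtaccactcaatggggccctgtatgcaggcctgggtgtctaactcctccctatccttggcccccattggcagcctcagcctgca
Mal: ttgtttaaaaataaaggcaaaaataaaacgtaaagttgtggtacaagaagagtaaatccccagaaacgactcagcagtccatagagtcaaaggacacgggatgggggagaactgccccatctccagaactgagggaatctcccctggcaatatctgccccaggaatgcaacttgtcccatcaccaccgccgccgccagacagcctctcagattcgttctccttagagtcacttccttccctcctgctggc
These letters stand once in the window of Fabp7, 249 bases before the start, and once in that of S100b, 234 bases before the start, in both on the opposite strand as TTCCCA. They do not stand in the window of Mal. Windows were searched for 5 of the members (8 windows in all, 4 of them for different starts of Pmp22). Erbb3 and Pou3f1 had none in the reference, and the window of Mbp is not reported here. Of the 8 windows, 4 held the core: those of Fabp7, S100b and Gfap and 1 of Pmp22. Over all 32851 windows of this length 21.6% held it. Neither of the SOX cores ACAAAG and ACAATG stood in any of the 8 windows on either strand, against 25.2% of all windows, and TATAAA stood in none of them, against 12.4%. A match is a run of letters and not a site, and these motifs were looked for with the signals known.

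The 8 genes did not move together between CSE and otospheres. S100b, Fabp7 and Pou3f1 were lower in otospheres, Mbp and Mal were higher by their main probes, and Pmp22, Erbb3 and Gfap did not pass the test. These are 3 of 8 genes lower, where 10.2% of all 18927 genes were called lower, and 2 of 8 higher, where 7.03% of all genes were called higher (limma, adjusted p under 0.05). For 4 members the otosphere samples all lay under the lowest CSE sample (18.8% of all genes did so), and for 2 members all lay above (14.0% of all genes). The median difference of the 8 genes, otospheres minus CSE, was -0.47, against -0.0074 over all genes. In bulk RNA of this kind, fewer cells of a type and less RNA per cell cannot be told apart.

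**Figure D1:**
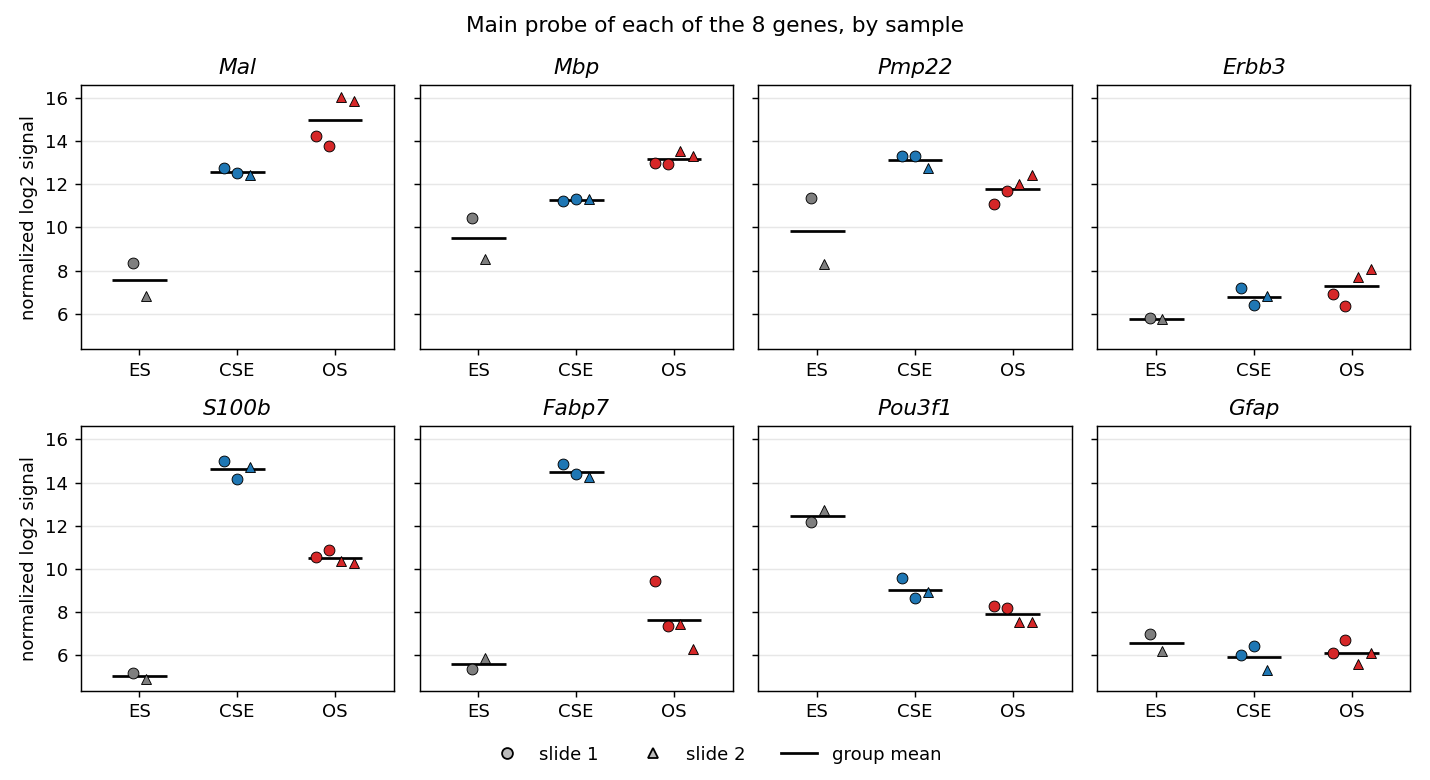
Normalized log2 signal of the main probe of each member (y axis) in the ESC, CSE and otosphere (OS) samples, where points are samples, circles are slide 1, triangles are slide 2 and the bar is the group mean. S100b and Fabp7 stood highest in CSE, Mal and Mbp in otospheres and Pou3f1 in ESCs, while Gfap lay between 5.29 and 6.96 in all samples.

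S100b, a calcium-binding protein used to mark Schwann cells and satellite glia, was 17.3-fold lower in otospheres than in CSE. Its signal was 15.01, 14.18 and 14.70 in CSE1 to CSE3. In otospheres it was 10.56 (OS1-2), 10.87 (OS3), 10.38 (OS4-5) and 10.26 (OS6). In the ESCs it was 5.16 and 4.89, not well above background on either array. The 3 groups did not overlap and the otosphere samples lay close to each other (10.52 ± 0.26, SD, n = 4, against 14.63 ± 0.42, n = 3, in CSE). The difference from CSE was -4.12 (SE 0.23, limma adjusted p = 4.4e-05), and it was -3.88 among the arrays of slide 1 and -4.38 among those of slide 2. S100b was thus lower than in the tissue and still far above the ESCs, at least 45.0-fold (adjusted p = 3.1e-06). CSE lay at least 779.9-fold above the ESCs (adjusted p = 2.7e-07).

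Fabp7, a brain-type fatty acid binding protein of immature Schwann cells and satellite glia, had the widest gap of the 8 genes. It gave 14.85, 14.41 and 14.28 in CSE. In otospheres it gave 9.41 in OS1-2, 7.35 in OS3, 7.42 in OS4-5 and 6.25 in OS6. The arrays averaged as OS1-2 differed by 1.25 for this gene, with 10.03 in OS1 and 8.79 in OS2, although they lay close over all probes. In the ESCs it gave 5.34 and 5.84, not well above background. All otosphere samples lay below CSE and above the ESCs, but they spread far more than those of CSE, with SDs of 1.32 (n = 4) and 0.30 (n = 3). The difference between otospheres and CSE was -6.91 (SE 0.62, 120-fold, adjusted p = 2.9e-04). It was -6.25 on slide 1 and -7.44 on slide 2. The otosphere mean of 7.61 stood at least 4.05-fold above the ESCs, which did not pass the test (adjusted p = 0.062), while CSE stood at least 486-fold above them (adjusted p = 5.4e-05).

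Mbp, myelin basic protein, which compacts the myelin sheath and also has longer transcripts outside myelin, was higher in otospheres than in CSE by its main probe, and its probes did not show 1 direction. The main probe (A_52_P604195) gave 12.99, 12.93, 13.53 and 13.30 in OS1-2, OS3, OS4-5 and OS6. It gave 11.21, 11.34 and 11.32 in CSE1 to CSE3 and 10.45 and 8.53 in ES1 and ES2. All otosphere samples lay above CSE and all CSE samples above both ESC lines. The difference between otospheres and CSE was 1.90 (SE 0.39, 3.73-fold, adjusted p = 0.016). It was 1.69 on slide 1 and 2.09 on slide 2.

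The second probe of Mbp (A_55_P1992160) ran between 8.75 and 9.77 in otospheres and between 6.75 and 6.92 in CSE. It was 2.38 higher in otospheres (SE 0.32, adjusted p = 0.0019). The third probe (A_52_P329451) went the other way. It ran between 7.01 and 7.75 in otospheres and between 8.32 and 9.10 in CSE, without overlap, and was 1.25 lower on the log2 scale in otospheres, a difference of -1.25 (SE 0.28, adjusted p = 0.022). It was 1.35 higher in CSE than in the ESCs (adjusted p = 0.014) and differed by 0.10 between otospheres and the ESCs (SE 0.31, adjusted p = 0.85). The second and the third probe carried the same RefSeq transcript in the array annotation and the main probe another one. Which transcripts each probe measured was not tested, so no single direction can be given for Mbp as a whole.

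**Figure D2:**
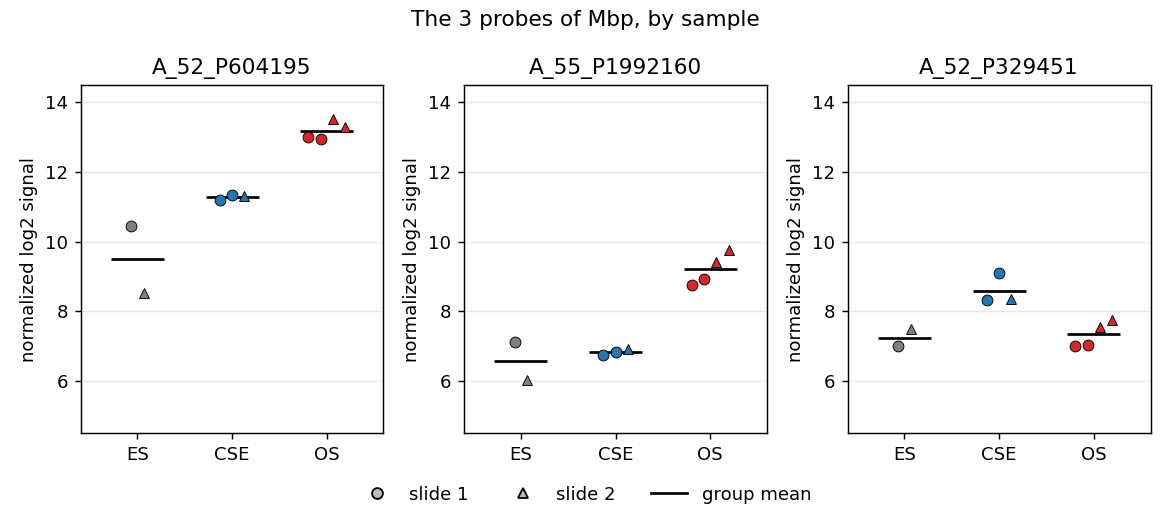
Normalized log2 signal (y axis, same range in all panels) of the 3 probes of Mbp in the ESC, CSE and otosphere samples, with points as samples, circles and triangles as slides 1 and 2, and bars as group means. Otospheres stood above CSE on 2 probes and below CSE on A_52_P329451.

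Mal, a small membrane protein of myelin and of apical transport in epithelia, was the member most increased in otospheres. It gave 12.78, 12.51 and 12.43 in CSE. In otospheres it gave 14.25 and 13.80 in OS1-2 and OS3 and 16.06 and 15.88 in OS4-5 and OS6. In ES1 and ES2 it gave 8.35 and 6.81. The 3 groups did not overlap. The difference from CSE was 2.42 (SE 0.60, 5.36-fold, adjusted p = 0.033), and it was 1.38 on slide 1 and 3.54 on slide 2. Mal stood 7.42 above the ESCs in otospheres (adjusted p = 9.2e-05) and 4.99 above them in CSE (adjusted p = 9.3e-04). The call against CSE was lost when 1 of 5 samples was left out, with adjusted p = 0.080 without OS4-5, 0.073 without OS6, 0.095 without CSE1, 0.091 without CSE2 and 0.11 without CSE3. The call for Mbp was lost without CSE1 (adjusted p = 0.067) and without CSE3 (adjusted p = 0.058). Where the 3 CSE samples became 2, fewer samples entered the fit.

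Pmp22, the peripheral myelin protein whose gene dose underlies inherited neuropathies, lay lower in all 4 otosphere samples than in any CSE sample and did not pass the test. Its main probe gave 13.31, 13.32 and 12.77 in CSE and 11.09, 11.69, 12.03 and 12.42 in OS1-2, OS3, OS4-5 and OS6. In the ESCs it gave 11.36 in G4-2 and 8.28 in D3, a gap wider than that within otospheres or within CSE. The difference between otospheres and CSE was -1.33 (SE 0.64, adjusted p = 0.27). In a fit of the otosphere and CSE samples alone, which was added after the data were seen and leaves out the spread between the ESC lines, the same difference gave an adjusted p of 0.033. The second probe of Pmp22 differed by -0.54 (SE 0.48, adjusted p = 0.64) and its groups overlapped. Against the ESCs the main probe was 3.31 higher in CSE (adjusted p = 0.011) and 1.99 higher in otospheres without passing the test (adjusted p = 0.074).

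Erbb3, the neuregulin receptor on which the Schwann cell lineage depends, was dim in all groups. It gave 7.19, 6.38 and 6.80 in CSE, 6.90, 6.37, 7.72 and 8.07 in OS1-2, OS3, OS4-5 and OS6, and 5.81 and 5.73 in the ESCs. Otospheres and CSE overlapped, and their difference was 0.47 (SE 0.39, adjusted p = 0.61). Otospheres stood 1.49 above the ESCs (adjusted p = 0.035) and CSE 1.02 above them (adjusted p = 0.15). The sign of the difference between otospheres and CSE depended on the slide, with -0.15 on slide 1 and 1.09 on slide 2.

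Pou3f1, also named Oct6 or SCIP, is the transcription factor of promyelinating Schwann cells and was the only member called lower than the ESCs in either cochlear group. It gave 12.16 and 12.74 in ES1 and ES2, and 9.55, 8.64 and 8.91 in CSE. In otospheres it gave 8.27, 8.20, 7.52 and 7.55 in OS1-2, OS3, OS4-5 and OS6. The groups did not overlap, in the order ESCs, CSE and otospheres. Otospheres lay 1.15 below CSE, a difference of -1.15 (SE 0.30, adjusted p = 0.039), which missed the threshold once the slide was a block (-1.11, adjusted p = 0.052). It also missed the threshold with 75th percentile scaling (adjusted p = 0.056) and without OS4-5 (0.11), OS6 (0.091), CSE1 (0.15) or CSE3 (0.099). Against the ESCs the differences were -4.57 in otospheres (adjusted p = 2.9e-05) and -3.42 in CSE (adjusted p = 1.7e-04).

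Gfap, the intermediate filament of astrocytes and of nonmyelinating Schwann cells, showed no detectable difference between groups. Its main probe gave 6.0, 6.41 and 5.29 in CSE, 6.09, 6.67, 5.57 and 6.09 in OS1-2, OS3, OS4-5 and OS6, and 6.96 and 6.16 in the ESCs. The difference between otospheres and CSE was 0.21 (SE 0.35, adjusted p = 0.85). The second kept probe gave a difference of -0.13 (SE 0.31, adjusted p = 0.91) and was well above background on 2 of the 11 arrays, and the third probe did not pass the filter. These signals set no more than a low level.

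**Figure D3:**
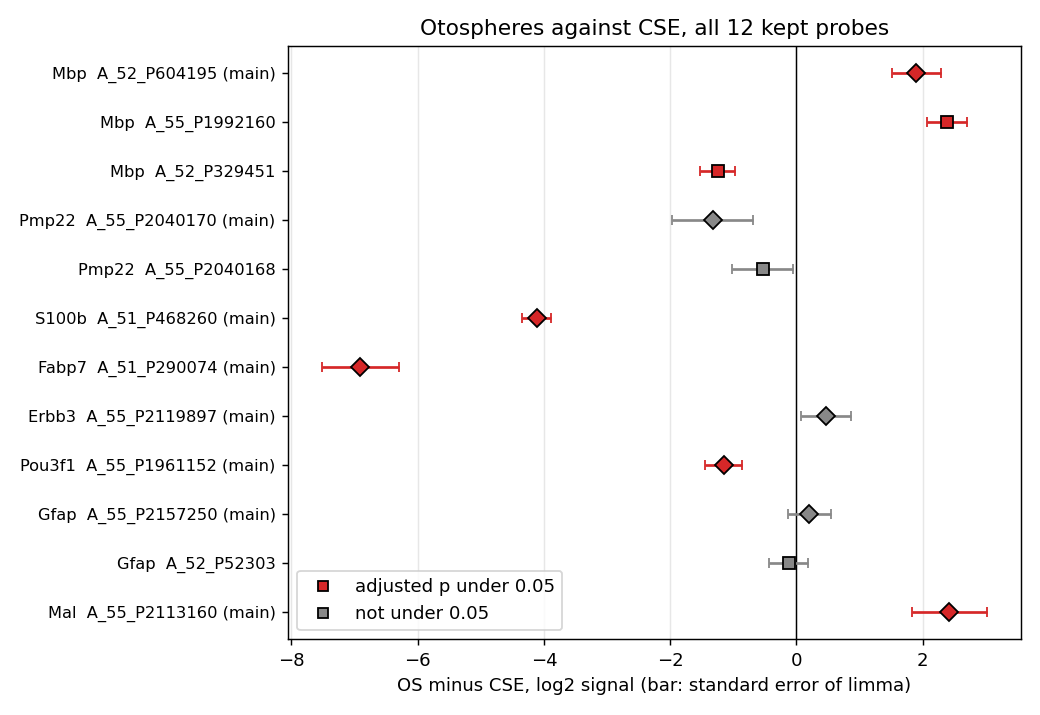
Difference in log2 signal between otospheres and CSE (x axis, bars are the standard error of limma) for the 12 kept probes of the 8 genes, with diamonds for main probes and red for an adjusted p under 0.05. Fabp7 and S100b lay far to the left at -6.91 and -4.12, Mal to the right at 2.42, and the probes of Mbp on both sides of 0.

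Against the ESCs and by the main probes, 4 of the 8 genes were higher in otospheres (S100b, Mal, Mbp and Erbb3), where 18.2% of all genes were, and 1 was lower (Pou3f1), where 20.2% of all genes were. In CSE 5 were higher than in the ESCs (S100b, Fabp7, Mal, Pmp22 and Mbp), where 20.8% of all genes were, and 1 was lower (Pou3f1), where 19.7% of all genes were. For Mbp and Pmp22 these calls did not hold for every probe. The third Mbp probe was not called between otospheres and the ESCs, and the second Mbp probe (0.25, adjusted p = 0.69) and the second Pmp22 probe (1.67, adjusted p = 0.060) were not called between CSE and the ESCs. In limma's F-test of all 3 groups at once, the test closest to that of the study, 6 of 8 genes differed, and 48.1% of all genes did. The comparisons share samples and are not independent of each other.

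Other genes of the peripheral glia lineage were read from 4 lists with 53 genes and no member among them, of which 52 were measured and Pmp2 was not. Of these, 20 were lower in otospheres than in CSE and 3 were higher, and 29 did not pass the test. The 10.2% and 7.03% of all genes called lower and higher stand beside these counts. The median difference was -0.91, against -0.0074 over all genes. In 25 of the 52 genes the otosphere samples all lay under the lowest CSE sample, and in 5 they lay above the highest. Over all genes these shares were 18.8% and 14.0%. The 31 called genes of these lists and of the paralog list below kept their direction under every scaling tried, except that 1 of them had no value in the deposited table.

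The myelin list held 10 of the 20 list genes called lower, with 10 of 14 measured genes lower, none higher and a median of -1.65. Ncmap, a noncompact myelin protein, gave 12.53, 11.50 and 12.58 in CSE and 9.39, 8.31, 8.76 and 8.48 in OS1-2, OS3, OS4-5 and OS6, a difference of -3.47 (SE 0.57, adjusted p = 0.0054). Prx, periaxin, lay between 8.62 and 9.52 in otospheres and between 12.19 and 12.60 in CSE, a difference of -3.27 (SE 0.22, adjusted p = 8.3e-05). Neither gene overlapped between the groups. Further differences were -2.16 for Ugt8a, which makes galactocerebroside, -2.13 for Gjc3, a glial connexin, and -1.93 for Cnp. Mbp and Mal, the members that were higher by their main probes, thus differed in direction from the 10 called genes of this list. Mag, Gjb1, Fa2h and Gldn did not pass the test, and Gldn, gliomedin, was the only one of the 14 with a positive difference (1.17, adjusted p = 0.18).

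Among 12 glial transcription factors, 3 were lower (Foxd3, Id2 and Nfatc4) and 1 was higher (Nab2), with a median of -0.73. Sox10, which every stage of the lineage needs, gave 13.32, 13.001 and 13.55 in CSE and 12.55, 12.29, 13.58 and 13.66 in OS1-2, OS3, OS4-5 and OS6. The groups overlapped, the difference was -0.27 (SE 0.41, adjusted p = 0.82), and the ESCs lay at 8.04 and 6.91. Sox10 is also a gene of the otic epithelium, so its level is not specific to glia. Egr2, the master regulator of myelination, gave 10.37, 10.05 and 11.45 in CSE and 10.20, 9.58, 8.58 and 6.89 in otospheres, a difference of -1.81 (SE 0.71, adjusted p = 0.17). The differences of the called genes were -3.02 for Foxd3, a neural crest factor (adjusted p = 0.04993, close to the threshold), -2.51 for Id2, -1.63 for Nfatc4 and 1.04 for Nab2, a corepressor of Egr proteins.

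Among 14 genes of immature Schwann cells and satellite glia, 3 were lower and none was higher, with a median of -1.03. Among the 3 were Kcnj10, the potassium channel Kir4.1 (-2.98, SE 0.33, adjusted p = 8.5e-04), and Cdh2, N-cadherin (-2.54, SE 0.32, adjusted p = 0.0015). Ngfr, the neurotrophin receptor p75 of immature Schwann cells, gave 12.02, 11.60 and 11.61 in CSE and 11.22, 10.43, 8.12 and 7.25 in OS1-2, OS3, OS4-5 and OS6. It did not overlap between the groups and did not pass the test (-2.49, SE 0.85, adjusted p = 0.11). Cdh19, a cadherin of Schwann cell precursors, lay between 5.15 and 7.04 in otospheres and between 5.44 and 6.36 in CSE, with a difference of 0.11 (SE 0.47, adjusted p = 0.95). Its probe was well above background on only 3 of the 6 otosphere and 2 of the 3 CSE arrays, so this difference is partly between dim signals. Kcnj10 also occurs in other cochlear cell types.

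Of 12 genes for neuregulin, ErbB and axon-glia signals, 4 were lower and 2 were higher. Dhh, the hedgehog ligand made by Schwann cells, gave 12.15, 11.72 and 11.21 in CSE and between 7.21 and 8.81 in otospheres, a difference of -3.95 (SE 0.47, 15.5-fold, adjusted p = 0.0012). Adam22 and its secreted ligand Lgi4, which act in axon ensheathment, differed by -2.36 and -1.98. Nrg3 was not well above background in any otosphere array and stood at least 1.51-fold higher in CSE (adjusted p = 0.045). Nrg1, the ligand of ErbB3, was higher in otospheres, with 11.10, 10.52, 11.50 and 11.86 in OS1-2, OS3, OS4-5 and OS6 against 9.37, 9.86 and 8.15 in CSE (2.12, SE 0.43, adjusted p = 0.015). Egfr, a relative of ErbB3, was higher by 1.66 (SE 0.36, adjusted p = 0.020), and Erbb2, its partner, differed by 0.44 (SE 0.43, adjusted p = 0.69).

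**Figure D4:**
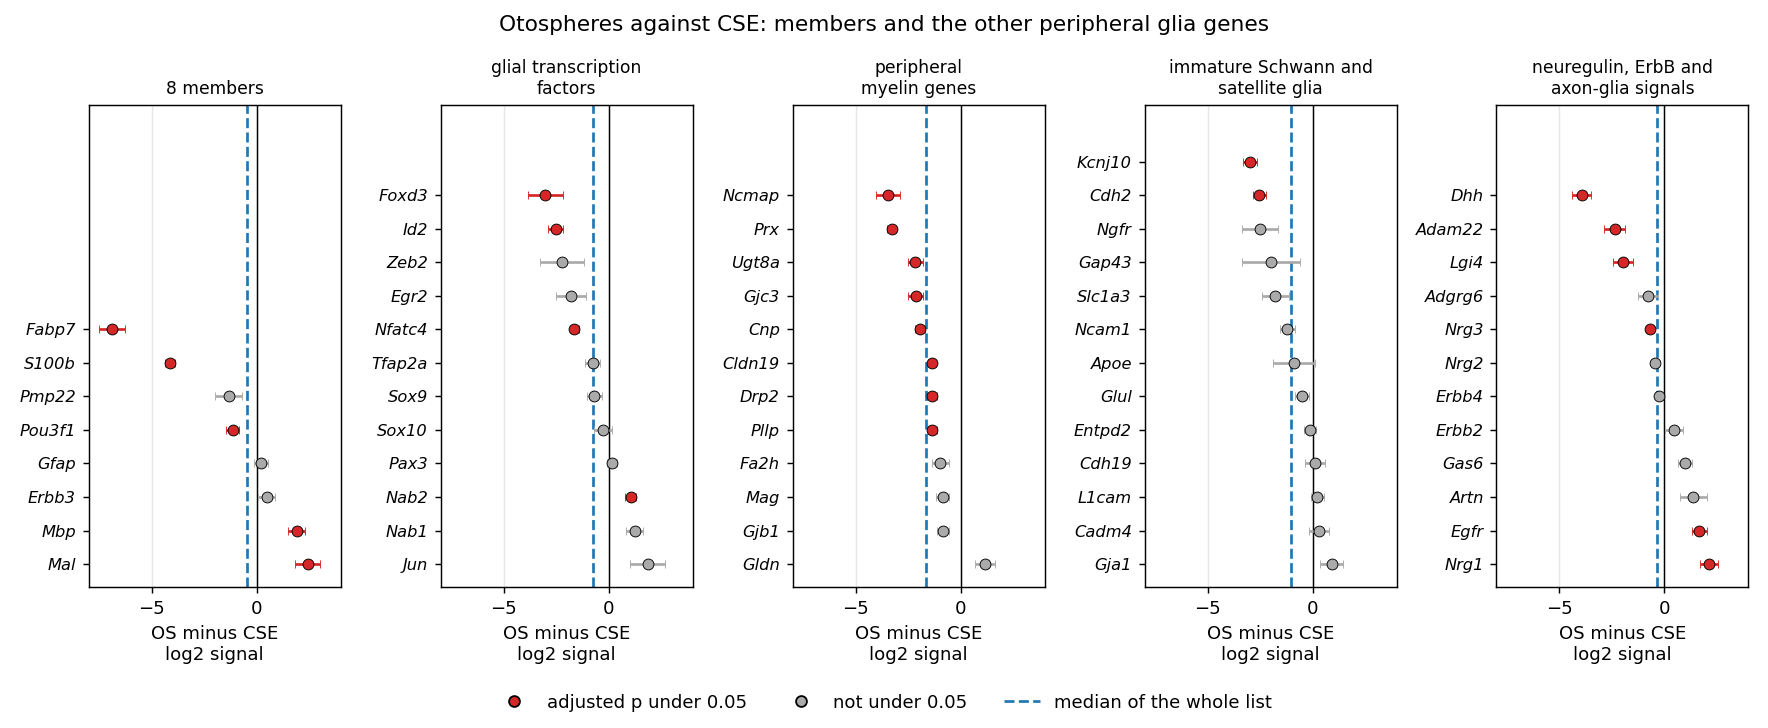
Difference in log2 signal between otospheres and CSE (x axis, bars are the standard error of limma) for the 8 members and for 49 of the 52 measured genes of the 4 peripheral glia lists (y axis), red for an adjusted p under 0.05 and a dashed line for the median of each whole list. In the whole myelin list 10 of 14 genes were called lower and none higher.

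Relatives of the members were read to see whether family members went the same way. Of 18 paralogs 4 were higher and 4 were lower in otospheres than in CSE, where 7.03% and 10.2% of all genes were. Emp2 and Emp1, the epithelial relatives of Pmp22, were higher by 3.47 (adjusted p = 8.6e-05) and 1.499 (adjusted p = 0.013), and Emp3 differed by -0.39 (adjusted p = 0.62). Mal2, which like Mal serves apical transport, was higher by 4.10 (SE 0.22, adjusted p = 3.2e-05), with 14.10 to 14.78 in otospheres and 9.94 to 10.53 in CSE. Mall differed by -0.17 (adjusted p = 0.97). S100a6 was higher by 4.72 (SE 0.41, adjusted p = 2.6e-04), opposite in direction to S100b, and S100a1 and S100a4 differed by 1.46 (adjusted p = 0.11) and 0.47 (adjusted p = 0.83).

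The relatives of Pou3f1 and of Gfap gave lower values in part. Pou3f2 differed by -3.34 (adjusted p = 1.3e-04) and Pou3f3 by -0.81 (adjusted p = 0.011), and Pou3f4 by -0.61 (adjusted p = 0.25). Of the intermediate filaments, Prph, peripherin of peripheral neurons, differed by -3.11 (adjusted p = 0.0061) and Des, desmin of muscle, by -1.92 (adjusted p = 0.028), while Vim and Nes differed by -0.29 (adjusted p = 0.70) and 0.37 (adjusted p = 0.77). The fatty acid binding proteins Fabp3, Fabp4 and Fabp5 differed by 0.39, 1.07 and -0.03 and none passed the test (adjusted p = 0.88, 0.35 and 0.99), so that Fabp7 was the only called gene of these 4.

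Markers of other cell types moved between the same groups. Of 6 neuron markers 5 were lower in otospheres (median difference from CSE -5.07), and their mean signal lay between 7.13 and 8.22 in otospheres and between 11.73 and 12.94 in CSE. All 5 supporting cell markers were lower (median -2.58, mean signal 8.78 to 9.24 in otospheres and 11.33 to 11.58 in CSE), as were 4 of 6 hair cell markers (median -2.37, mean signal 7.26 to 9.41 and 10.66 to 10.98). All 4 epithelial markers were higher (median 2.48, mean signal 14.24 to 15.38 and 12.03 to 12.73). Of 7 defining markers of Schwann cells and satellite glia, Erbb3 among them, 2 were lower and 5 were not called, and their mean signal lay between 7.81 and 9.31 in otospheres, between 9.68 and 10.16 in CSE and at 6.67 and 6.86 in the ESCs. The part of these cell types in the differences of the members was not tested.

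Markers of central glia and of pigment cells gave further values beside the members. None of 5 oligodendrocyte markers was called between otospheres and CSE. Their mean signal lay between 5.85 and 7.17 in otospheres and between 5.59 and 5.88 in CSE, where Opalin and Olig1 were not well above background on any array. In otospheres Olig1 gave 8.13 and 8.27 in OS1-2 and OS3 but 4.96 and 5.05 in OS4-5 and OS6. Opalin gave 8.71 in OS3 and between 4.72 and 4.95 in the other otosphere samples. Of 3 astrocyte markers 1 was lower (mean signal 6.51 to 7.70 in otospheres and 7.83 to 8.23 in CSE). Of 5 melanocyte markers, another neural crest derivative of the cochlea, 2 were lower (mean signal 6.62 to 6.88 and 7.995 to 9.16). Of 6 fibroblast markers 1 was lower, with a mean signal of 9.69 to 13.98 in otospheres and 13.84 to 14.40 in CSE. Of 3 endothelial and 2 macrophage markers 1 each was lower (mean signal 8.41 to 8.68 against 9.35 to 10.04, and 9.09 to 10.08 against 10.75 to 11.16), and of 4 pluripotency markers none was called (6.44 to 7.11 against 6.68 to 6.80).

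The otospheres of the 2 slides also lay apart from each other. Slide 2 minus slide 1, Mal differed by 1.95, Erbb3 by 1.26, Pmp22 by 0.84 and Mbp by 0.45, and Fabp7 by -1.54, Pou3f1 by -0.70, Gfap by -0.54 and S100b by -0.39. Over all genes 43.2% lay lower in OS4-5 and OS6 than in OS1-2 and OS3, with a median gap of 0.066. Of the 52 listed glia genes 30 (57.7%) lay lower and 22 higher, with a median gap of -0.17. Among the lower ones the gap was -4.56 for Gap43, a growth-associated protein of immature Schwann cells and neurons, -3.34 for Zeb2, -3.14 for Ngfr, -2.91 for Foxd3 and -2.16 for Egr2. Among the higher ones it was 1.76 for Adgrg6, an adhesion receptor that Schwann cells need to myelinate, 1.59 for Cadm4, 1.503 for Artn and 1.20 for Sox10. Markers of other cell types moved with the slide as well. Of 6 fibroblast markers 5 lay lower on slide 2 (median gap -2.94), with -5.61 for Col3a1, -4.57 for Col1a2 and -3.06 for Pdgfra. All 6 hair cell markers lay higher (median gap 1.60), with 2.49 for Gfi1, 1.82 for Atoh1 and 1.78 for Pou4f3. Their part in the gaps of the glia genes was not tested. With 2 samples on each side these gaps were not tested, and slide and otosphere preparation cannot be told apart here. For some of these genes OS4-5 and OS6, both on slide 2, also lay far apart. They gave 11.82 and 6.51 for Col3a1, 13.30 and 8.61 for Col1a2 and 9.19 and 5.88 for Gap43. For others they lay closer, with 8.12 and 7.25 for Ngfr and 4.94 and 4.64 for Foxd3. The CSE sample of slide 2 differed from those of slide 1 by between -0.92 (Gfap) and 0.10 (S100b) over the 8 genes.

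Within the slides the difference between otospheres and CSE had the same sign on both for 7 of the 8 genes, with Erbb3 as the exception. Of the 52 list genes 35 were lower in otospheres on both slides, 11 were higher on both and 6 changed sign. Shares over all genes were not computed for the counts by slide in this paragraph. The counts therefore do not show whether these genes differ from others. Egr2 differed by -0.32 on slide 1 and -3.71 on slide 2, and Ngfr by -0.99 and -3.93. The number of list genes called lower was 11 among the arrays of slide 1 alone and 19 among those of slide 2 alone, where CSE3 and ES2 had no replicate and were taken to vary like the otospheres. With the slide as a block, 2 members were called lower (S100b and Fabp7) and 2 higher (Mbp and Mal).

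**Figure D5:**
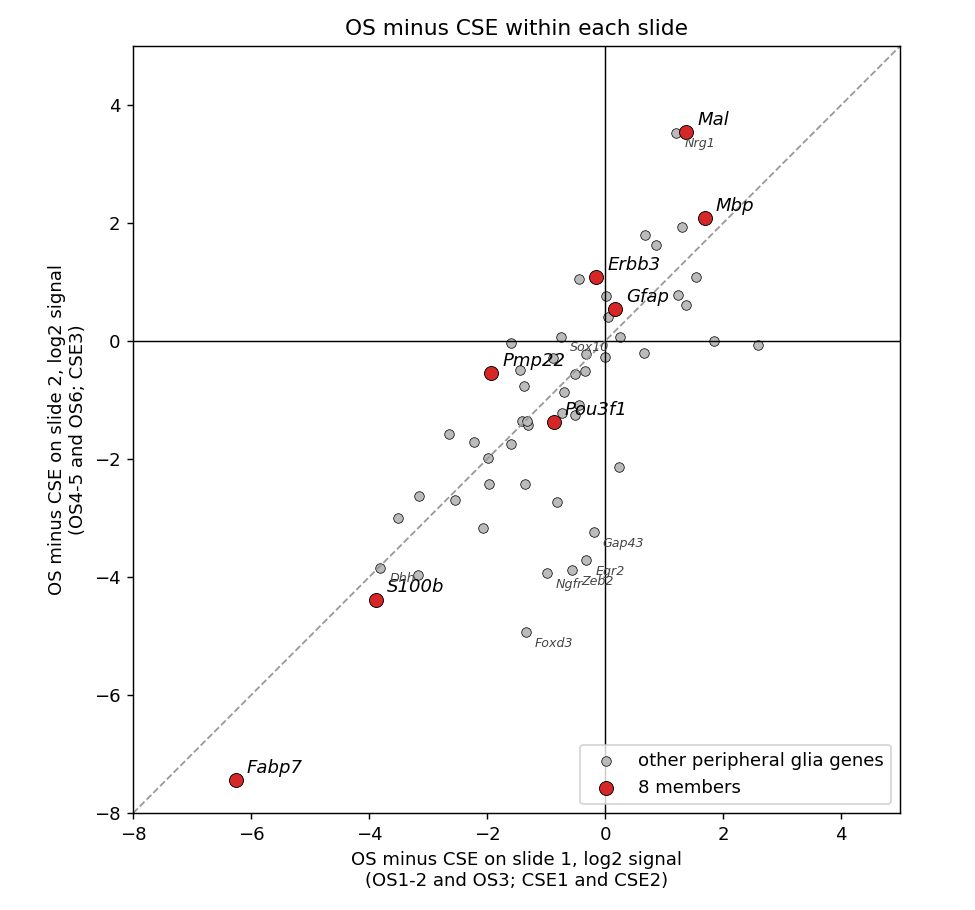
Difference in log2 signal between otospheres and CSE among the arrays of slide 1 (x axis) and of slide 2 (y axis) for the 8 members (red) and 49 of the 52 other peripheral glia genes (grey), with the dashed line where both are equal. Mbp, S100b, Pou3f1 and Gfap lay near the line, Mal, Pmp22 and Erbb3 above it, and Fabp7, Egr2, Ngfr, Zeb2, Gap43 and Foxd3 below it.

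The genes with the pattern most like each member were taken by Pearson correlation of log2 signal over the 9 samples, among 14695 genes well above background on most arrays. They are a description, since 9 samples in 3 groups give many genes a high value. S100b was followed by Lrrc75b (r = 0.994), Arhgef19 (0.992) and B330016D10Rik (0.992), and Fabp7 by Arhgap39 (0.992), Jag1 (0.99) and Heyl (0.989). Jag1 is a Notch ligand that marks supporting cells and Heyl a target of Notch, and Jag1 gave 12.75, 12.68 and 12.96 in CSE against 9.92 to 10.56 in otospheres. Mal was followed by Anxa5 (0.995), Trpv4 (0.995) and Sipa1l1 (0.994), and Mbp by Nedd4l, Prrx2 and Ildr1 (each 0.993). For Pou3f1 they were Bccip (0.997) and Wdr73 (0.992), for Pmp22 Lysmd4 (0.979) and Zfpm1 (0.977), for Erbb3 Mfn2 (0.983), Ppp2r5b (0.976) and Prkx (0.976), and for Gfap Gsx1 (0.951), Asgr1 (0.946) and Snap47 (0.926).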

How the data were processed

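RNA of 2 ESC, 6 otosphere and 3 CSE samples (50 or 100 ng each) had been labelled with Cy3 and hybridized to single-color 8-array mouse slides with 62976 spots per array. The authors deposited the scanner intensity files (Feature Extraction 10.7.3.1 per the file headers) and a table of log2 values that, per their methods, they had background-corrected, quantile-normalized and filtered on dim probes with limma. Values here start from the deposited intensities. The median signal minus the local median background was corrected by normexp with an offset of 16 and quantile-normalized in log2 over the 11 arrays with limma 3.58.1 (R 4.3.3), spots of a probe were averaged, and control and outlier spots were left out. No spot was saturated. Of 55681 probes, 47997 were kept, which exceeded the 95th percentile of the negative control spots by 10% or more on 2 or more arrays. Of all probes 27399 had 1 gene symbol through their RefSeq accession and 28282 stayed unnamed. The 2 slides carried different versions of the annotation, and 2056 spots with 2 accessions were named only where both gave 1 symbol.

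One limma model with a mean per group and empirical Bayes was fitted to all 9 samples, and p-values were Benjamini-Hochberg adjusted over all kept probes, at a threshold of 0.05. A gene's main probe is its brightest kept probe over all arrays. Named genes are all members, up to 4 lowest and 4 highest called genes of a list, the defining glia markers, Erbb2, Nrg1, the paralogs and the 3 genes most alike to each member, and Gap43, Zeb2 and other list genes beyond these were named after their values were seen. Some genes that fall under this rule are not reported here, although counts and medians of lists include them. A fold against a probe not well above background on every array of a group is a lower bound, taken per array against the higher of the lowest signal among probes well above background and the probe's own. The members and lists were chosen with earlier results of these data known. The fit was tested on simulated data. Alternatives were other offsets, 75th percentile scaling of the processed signal, the deposited log2 values, other filters, every array as a sample, slide or replicate number as a block, no empirical Bayes, the second probe, each sample left out, and, added after the data were seen, each slide alone and otospheres with CSE alone.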

Additional observations from a re-analysis of the deposited data

Results flagged for a closer look

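Of 82 sets of 4 otosphere values over the probes of the members, the peripheral glia lists and the paralogs, 1 held a sample set apart from the others. Apoe, an apolipoprotein of satellite glia, was 10.98 in OS6, while the other otosphere samples lay between 15.14 and 15.50. The gap was 0.92 of the whole range of the group. Chance sets apart about 1 in 20 such sets, which is more than was seen here.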

How the results depend on the processing

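The differences of S100b and Fabp7 kept their direction under all 23 alternatives, with values between -4.38 and -3.86 and between -7.51 and -5.79. They passed the threshold in every alternative with 2 or more samples in otospheres and in CSE. The 23 are not separate checks. S100b and Fabp7 had 1 probe each, so the second-probe alternative repeated the main fit. Leaving out either ESC line repeated the fit of otospheres and CSE alone, since a lone ESC sample adds no spread. The counts of members lower in otospheres than in CSE (2 to 4), differing between otospheres and ESCs (4 to 7) or between CSE and ESCs (4 to 7), and past the F-test (5 to 7) stayed within 1.5 times the values given above. The count of members higher in otospheres, 2 above, was 1 with the replicate block, 0 without empirical Bayes, 1 on slide 1 alone, and between 0 and 2 with 1 sample left out (1 without OS4-5, OS6 or CSE2, and 0 without CSE1 or CSE3). The count of glia list genes higher in otospheres, 3 above, was 6 with the replicate block, 0 without empirical Bayes and between 1 and 4 with 1 sample left out (1 without OS4-5, CSE1 or CSE2). The count lower, 20 above, was 11 on slide 1 alone. Erbb3 changed sign with the replicate block (-0.067) and on slide 1 alone (-0.15), and Gfap with its second probe (-0.13) and without CSE3 (-0.10, with a range of -0.10 to 0.46 over the samples left out), and none of these 4 differences passed the test. The cause was not tested.

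Mbp lost its call with the replicate block (adjusted p = 0.064) and without empirical Bayes (0.064), Mal without empirical Bayes (0.11) and on slide 1 alone (0.064), and Pou3f1 in 9 of 23 alternatives, the replicate block among them (-0.79, adjusted p = 0.21). Whether equal numbers pair the samples was not settled. The deviations of OS1 and CSE1 correlated at 0.356, those of OS2 and CSE2 at -0.341 and those of OS3 and CSE3 at -0.393. Deviations were taken from group means, and OS1 and OS2 lay close to each other. These correlations thus depend on each other and cannot decide the pairing. Pmp22 passed the threshold with otospheres and CSE alone. The fits without either ESC line repeated this result and do not add to it. It also passed on slide 1 alone (-1.93), where ES1 had no replicate.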
